A study of Homo sapiens with 6 samples.

Results

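The genes described here encode the peroxidases, dismutases and catalase that clear peroxides and superoxide, together with the enzymes that restrain ferroptosis beside GPX4. They were the 10 rows of the deposited count table whose symbols were GPX1, GPX4, GPX7, GPX8, SOD1, SOD2, CAT, AIFM2, DHODH and GCH1, out of 24960 genes in the table. RNA came from K562 cells, a chronic myeloid leukemia (CML) cell line that grows in suspension and carries the BCR::ABL fusion, so both groups share this fusion. The control group had 3 libraries and the hyperoside (2 mM) group had 3 libraries. Hyperoside is a flavonol glycoside of plants, and the dose is the one given in the study's text, since the sample labels name only the treatment. The time between addition of hyperoside and RNA extraction was not given in the sources used here, nor was it stated whether the replicates of a group came from separate cultures, so p-values measure the spread between these libraries. In bulk RNA, fewer cells of one state and less RNA per cell cannot be told apart.

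Ferroptosis is a form of cell death driven by iron-dependent peroxidation of membrane lipids. GPX4 is a selenium-containing peroxidase that uses glutathione to reduce lipid hydroperoxides inside membranes, and it is the central brake on this death. AIFM2, also called FSP1, reduces ubiquinone and vitamin K at membranes, DHODH reduces ubiquinone in the inner mitochondrial membrane while making pyrimidines, and GCH1 starts the synthesis of tetrahydrobiopterin, a radical-trapping cofactor. SOD1 in the cytosol and SOD2 in mitochondria turn superoxide into hydrogen peroxide, and catalase, encoded by CAT in peroxisomes, breaks hydrogen peroxide down.

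Each library held between 35613283 and 36754725 counts assigned to genes, and 15095 genes passed the filter on low counts and were tested. The K562 markers chosen for a check of the label (among them fetal and embryonic globins, GATA1, TAL1, KLF1, ALAS2 and TFRC) were all detected, and their summed level was 5770 to 7232 CPM (counts scaled to the normalized library size) in controls and 5009 to 5978 with hyperoside. Of these 10 markers 3 were called higher and 4 lower in the edgeR test given next. The sample labels give the tissue as bone, and COL1A1, the main collagen gene of bone-forming cells, stood at 1.28 to 3.16 CPM in the 6 libraries. Among 9 listed markers of other cell types in the table, the B cell marker MS4A1 was at 0 counts in 5 libraries, and the summed level of the list was 123.1 to 136.3 CPM in controls and 151.9 to 156.4 with hyperoside. EPCAM and CD3D made up most of this sum, but PECAM1, an endothelial marker, differed most between the groups, with 9.74 ± 0.718 CPM in controls (SD, n = 3) and a log2 fold change of 1.52 (adjusted p = 8.39e-09 in the edgeR test). CD3D was also called higher and COL1A1 lower in the edgeR test, EPCAM was not called, and the part of these markers in the results below was not tested.

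Of the 10 genes, 8 were tested, and 5 of these were lower with hyperoside at an adjusted p under 0.05. They were GCH1, DHODH, CAT, SOD1 and SOD2. None of the 8 was called higher. Over all tested genes, 23.2% were called lower, 22.1% higher and 45.3% in either direction by the same edgeR quasi-likelihood test with Benjamini-Hochberg adjustment. GPX4, GPX8 and AIFM2 were not called, and GPX1 and GPX7 had too few counts for the test. Only GCH1 also passed the fold change of 2 that the study used to call differentially expressed genes, against 10.2% of tested genes that passed it in either direction and 3.76% that passed it as lower. Log2 fold changes had a median of -0.27 over the 8 genes and of 0.00 over all tested genes. Normalized CPM of the groups did not overlap, with the hyperoside group lower, in 4 of the 8 genes, namely GCH1, CAT, SOD1 and SOD2, and in 27.3% of all tested genes (54.4% in either direction).

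**Figure D1:**
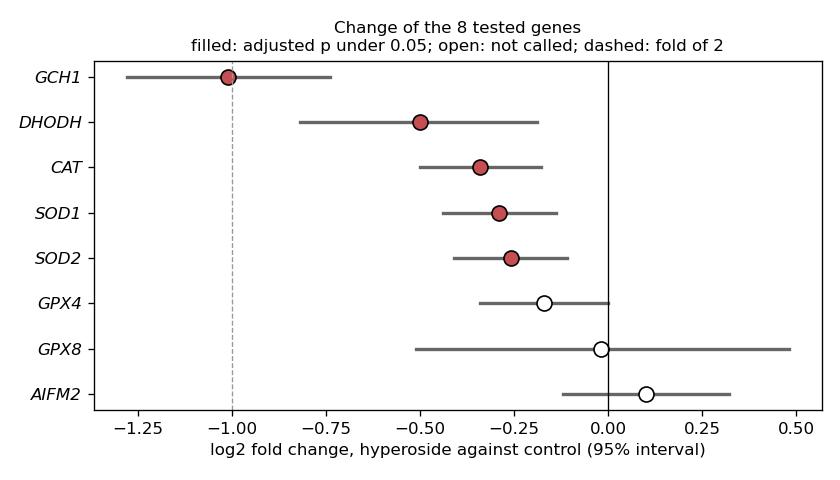
Log2 fold change of the 8 tested genes in hyperoside against control libraries (x axis), with 95% intervals from the edgeR fit as lines. Filled points passed an adjusted p of 0.05, open points did not, and the dashed line marks a fold change of 2. GCH1 lies farthest to the left at -1.01, and AIFM2 lies to the right of 0 at 0.10.

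The sequences before the transcription starts in RefSeq are shown for 4 of the genes. They were taken because CAT and DHODH were called lower while GPX4 and AIFM2 were not called. The sequences of SOD2, also called lower, are not shown. RefSeq promoter windows on GRCh38.p14 were matched by symbol for 8 of the 10 genes, with 13 windows in all, and SOD1 and GCH1 had none. The 250 bases before the start are printed 5′ to 3′ from chr11:34438684-34438933 on the plus strand for CAT, chr16:72008494-72008743 on the plus strand for DHODH, chr19:1103744-1103993 on the plus strand for GPX4 (the first of its 3 windows) and chr10:70132826-70133075 on the minus strand for AIFM2. GENCODE 29 places the starts of these 4 genes inside the printed windows, at 34438925 (CAT), 72008588 (DHODH), 1103926 (GPX4) and 70132934 (AIFM2). Capitals mark CCAAT boxes on either strand in the first 3 sequences. In AIFM2 they mark the core of the antioxidant response element, TGACNNNGC, to which NRF2 binds with its partners, here read on the opposite strand.
CAT: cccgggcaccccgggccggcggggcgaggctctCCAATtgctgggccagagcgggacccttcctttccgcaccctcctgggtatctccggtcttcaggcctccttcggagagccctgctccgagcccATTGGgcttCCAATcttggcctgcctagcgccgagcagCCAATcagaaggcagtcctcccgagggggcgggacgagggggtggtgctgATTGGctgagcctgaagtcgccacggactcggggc
DHODH: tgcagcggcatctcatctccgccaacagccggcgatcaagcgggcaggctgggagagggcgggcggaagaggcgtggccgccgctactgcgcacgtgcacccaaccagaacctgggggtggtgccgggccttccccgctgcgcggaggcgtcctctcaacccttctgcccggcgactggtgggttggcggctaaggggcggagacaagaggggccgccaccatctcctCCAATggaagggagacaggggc
GPX4: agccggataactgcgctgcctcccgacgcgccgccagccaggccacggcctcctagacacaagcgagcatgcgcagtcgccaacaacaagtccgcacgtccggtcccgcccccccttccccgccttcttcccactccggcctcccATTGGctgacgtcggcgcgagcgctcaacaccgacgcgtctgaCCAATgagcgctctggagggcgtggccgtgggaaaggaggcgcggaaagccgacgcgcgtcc
AIFM2: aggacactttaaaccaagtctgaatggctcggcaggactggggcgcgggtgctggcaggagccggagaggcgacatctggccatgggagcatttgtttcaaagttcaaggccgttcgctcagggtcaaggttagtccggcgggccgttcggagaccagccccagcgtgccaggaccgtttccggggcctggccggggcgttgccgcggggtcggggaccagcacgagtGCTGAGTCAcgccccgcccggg
In the sequences shown, a CCAAT box was found 5 times before the RefSeq start of CAT, 2 times before that of GPX4 and 1 time before that of DHODH. The GPX4 windows that are not shown held 3 and 0, and the 4 windows of SOD2 held 0 to 3. Of the 35116 windows in the table, 32% held at least 1 CCAAT box and 0.874% held 4 or more. The antioxidant response element core was found in the AIFM2 window, at position -22 from the RefSeq start. It was in none of the other 12 windows of these genes, and 10.9% of all windows held it. The DHODH box, the GPX4 box nearer to the RefSeq start and the AIFM2 core lie past the GENCODE 29 starts given above, not before them. The GC box GGGCGG occurred in all of the windows other than that of GPX8, and in 42.6% of all windows. The cyclic AMP response element TGACGTCA occurred in none of the 13 windows and in 1.65% of all windows. The ATF4 composite element TGATGNAAT occurred in 1, that of GPX8, and in 0.888% of all windows. Both strands were searched, and no motif lies within another of the 5. A match describes these letters only.

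Levels per length, as the FPKM values that the authors deposited, spread over more than 4 orders of magnitude. In the control group SOD1 was highest with 357 ± 19.4 FPKM (SD, n = 3), followed by GPX4 with 169 ± 9.49 and CAT with 49.2 ± 2.03. SOD2 had 9.41 ± 0.775 FPKM, AIFM2 had 7.02 ± 0.733, GCH1 had 4.22 ± 0.322, DHODH had 2.59 ± 0.305 and GPX8 had 1.31 ± 0.455 (SD, n = 3 each). The 3 libraries of each of these genes lay apart from those of the next gene in this order. At the bottom, GPX1 and GPX7 had 0 to 0.238 and 0 to 0.0914 FPKM, and they overlapped. In the hyperoside group the order by mean was the same, but SOD2 (8.14 ± 0.0429 FPKM) then overlapped AIFM2 (7.80 ± 0.412), and GCH1 (2.16 ± 0.238) overlapped DHODH (1.90 ± 0.358; SD, n = 3 each). The FPKM of SOD2 was set against a length of 17592 bases, longer than the 14266 bases of its longest transcript in GENCODE 29, whereas SOD1 was set against 895 bases. FPKM of SOD2 is therefore low beside its counts, which were 5099 to 6345 per library against 9343 to 12487 for SOD1.

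**Figure D2:**
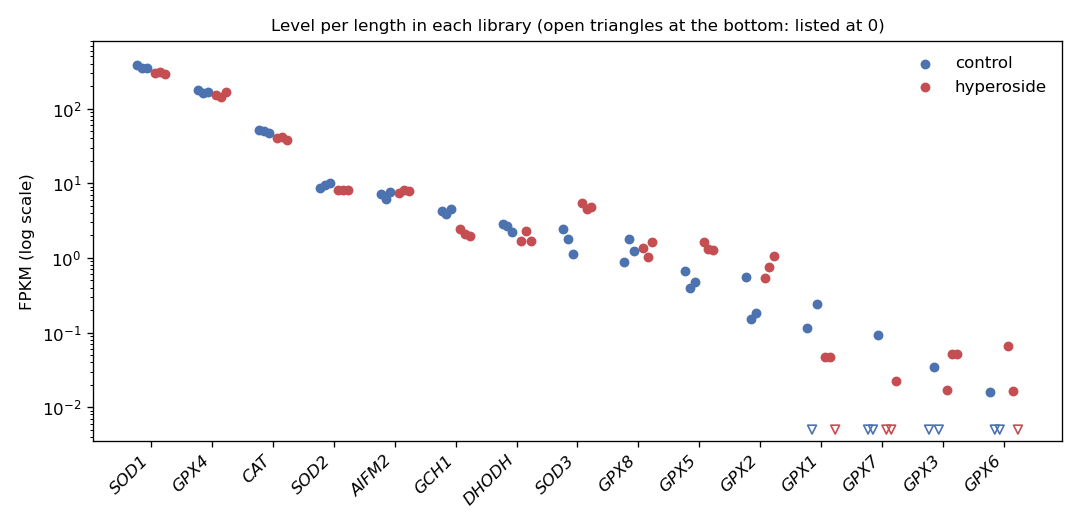
FPKM on a log scale (y axis) of the 10 genes and of 5 further GPX and SOD genes (x axis) in each of the 3 control and 3 hyperoside libraries, 1 point a library, with open triangles at the bottom for values listed at 0. SOD1 and GPX4 lie above 100 FPKM in every library, and GPX1, GPX7, GPX3 and GPX6 lie at or near 0.

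GPX4 maps to chromosome 19 at 1103926 to 1106791 (plus strand) of GRCh38 in GENCODE 29. It had 215, 186 and 194 CPM in control replicates 1, 2 and 3, and 173, 163 and 194 CPM in hyperoside replicates 1, 2 and 3. Hyperoside replicate 3 reached the level of control replicate 3, so the groups overlapped. The log2 fold change was -0.17 (standard error, SE, 0.08, adjusted p = 0.0913 in the edgeR test), and the 95% interval of the ratio of hyperoside to control ran from 0.790 to 0.998. The unadjusted p was 0.0471. Whether GPX4 was called depended on 1 library. Without hyperoside replicate 3 the log2 fold change was -0.23 and the adjusted p 0.0464, whereas with any other library left out the adjusted p in edgeR lay between 0.0750 and 0.322. The tested genes whose centered log2 CPM lay closest to GPX4 over the 6 libraries were TEFM, RPS25 and VAMP2, with root mean square differences of 0.018, 0.021 and 0.023.

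GPX4 made up nearly all of the FPKM assigned to glutathione peroxidase genes, although GPX1 may be undercounted, since its reads can match near-identical processed copies. Its share of the FPKM summed over the 8 GPX genes was 98.7% ± 0.112 in the control group, with a range of 98.5% to 98.8%, and 97.7% ± 0.0719 with hyperoside, with a range of 97.7% to 97.8% (SD, n = 3 each). The ranges did not overlap. The sum over the 8 genes was 171 ± 9.43 FPKM in controls and 159 ± 13.4 FPKM with hyperoside (SD, n = 3 each), and the values overlapped. The share of GPX5 was 0.296% ± 0.0664 without and 0.888% ± 0.154 with hyperoside, and that of GPX2 was 0.170% ± 0.121 and 0.490% ± 0.134 (SD, n = 3 each). No test was made of these shares.

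GPX1, the abundant cytosolic peroxidase of many tissues, was at the floor of detection in these libraries. It had 5, 0 and 10 counts in control replicates 1, 2 and 3 and 2, 2 and 0 counts in hyperoside replicates 1, 2 and 3. A count of 0 allows up to 3 counts, for counting error only. GPX1 maps to chromosome 3 at 49357171 to 49358600 (minus strand), and GENCODE 29 lists it as a polymorphic pseudogene, with processed copies elsewhere whose near-identical sequence could take up its reads. GPX7, a peroxidase of the endoplasmic reticulum, had 0, 0 and 4 counts in controls and 0, 0 and 1 with hyperoside. No difference was detectable at these counts for either gene. GPX8, a membrane-bound peroxidase of the same compartment, was low but measured, with 3.47, 6.79 and 4.65 CPM in controls and 4.90, 3.84 and 5.98 CPM with hyperoside. All hyperoside values lay between the lowest and the highest control value. Its log2 fold change was -0.02 (SE 0.24, adjusted p = 0.958 in the edgeR test), with a 95% interval from -0.51 to 0.48. This interval holds changes in either direction of the size seen for CAT and SOD1.

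SOD1, the copper-zinc dismutase, had 355, 313 and 308 CPM in control replicates 1, 2 and 3, and 265, 276 and 259 CPM in hyperoside replicates 1, 2 and 3. Every hyperoside library lay below every control library. The hyperoside mean was 81.9% of the control mean, and the log2 fold change was -0.29 (SE 0.07, adjusted p = 0.00343 in the edgeR test). SOD1 maps to chromosome 21 at 31659622 to 31668931 (plus strand), and processed copies of SOD1 and of SOD2 elsewhere in the genome could share their reads. CCS, the chaperone that loads copper into SOD1, fell too, from 32.9 ± 4.01 to 26.3 ± 1.47 CPM (SD, n = 3 each) with a log2 fold change of -0.33 (adjusted p = 0.0154 in the edgeR test). This call was lost without control replicate 1, without hyperoside replicate 1 and without hyperoside replicate 2.

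SOD2, the mitochondrial manganese dismutase, had 158, 169 and 178 CPM in controls and 140.0, 141 and 141 CPM with hyperoside. The 3 hyperoside libraries were nearly equal and lay below all control libraries. The log2 fold change was -0.26 (SE 0.07, adjusted p = 0.00691 in the edgeR test), but the call was lost when FPKM values were tested (adjusted p = 0.0821 with 1 added and 0.0781 with 0.1 added in limma). SOD2 maps to chromosome 6 at 159669057 to 159745186 (minus strand) in GENCODE 29. A further entry of the same name overlaps it on the same strand, at 159679119 to 159762529. Exons listed under this name overlap those of ACAT2 and WTAP on the opposite strand. These overlaps were not assigned to either entry. Whether the counting used strand was not stated. ACAT2 had a log2 fold change of -0.48 and WTAP of 0.41, and their part in the counts of SOD2 was not tested. Within a library, the log2 ratio of SOD2 to SOD1 counts was -0.95 ± 0.19 in controls and -0.92 ± 0.05 with hyperoside (SD, n = 3 each). A two-sided exact permutation test of the difference, 0.03, gave p = 0.900 (0.900 after Benjamini-Hochberg adjustment over 2 pairs), where 3 libraries against 3 cannot give a p below 0.1. Control replicate 1, at -1.17, lay lowest, and without it the difference was -0.08.

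CAT had 122, 115 and 107 CPM in control replicates 1, 2 and 3, and 90.2, 94.5 and 87.0 CPM in hyperoside replicates 1, 2 and 3. The groups did not overlap. The hyperoside mean was 79.0% of the control mean, with a log2 fold change of -0.34 (SE 0.08, adjusted p = 0.00142 in the edgeR test). CAT, whose 5 CCAAT boxes are marked above, maps to chromosome 11 at 34438925 to 34472062 (plus strand), and neither GENCODE 29 nor RefSeq places the exons of another gene on its own. The genes for import of proteins into peroxisomes, where catalase works, moved in both directions. Of 16 listed genes 15 were tested, 5 were called lower and 4 higher, and the median log2 fold change was 0.05 against 0.00 for all tested genes. PEX5, the receptor that carries catalase and other enzymes into the peroxisome, had a log2 fold change of -0.64 (adjusted p = 2.38e-05 in the edgeR test). PEX13, a part of the docking complex, had -0.37, whereas the ubiquitin ligase PEX10, called higher, had 0.56.

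**Figure D3:**
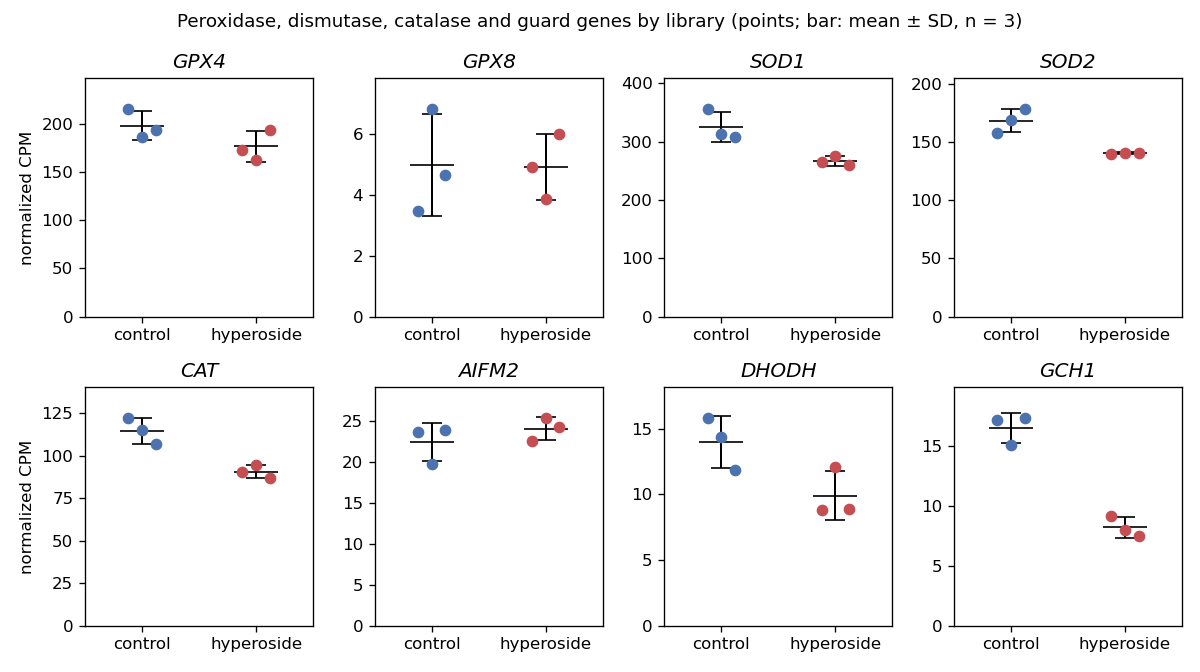
Normalized CPM (y axis, starting at 0) of the 8 tested genes in the 3 control and 3 hyperoside libraries (x axis), 1 point a library, with the mean ± SD as bars. The hyperoside libraries lie below all control libraries for SOD1, SOD2, CAT and GCH1, and the groups overlap for GPX4, GPX8, AIFM2 and DHODH.

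GCH1 changed most among these genes. It had 17.2, 15.1 and 17.3 CPM in control replicates 1, 2 and 3, and 9.13, 7.95 and 7.50 CPM in hyperoside replicates 1, 2 and 3. Each hyperoside library lay far below the lowest control library. The hyperoside mean was 49.5% of the control mean, and the log2 fold change was -1.01 (SE 0.13, adjusted p = 5.28e-06 in the edgeR test). The fold of 2.02 sat at the edge of the study's threshold, and it stayed above 2 in 8 of 15 alternatives, while the adjusted p stayed under 0.05 in all 15. GCH1 maps to chromosome 14 at 54842008 to 54902852 (minus strand). The genes closest to it in centered log2 CPM over the 6 libraries were ELL3, C1orf226 and RASGRP2, with root mean square differences of 0.038, 0.054 and 0.085.

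Of the 7 other listed genes of tetrahydrobiopterin synthesis and recycling, all tested, 1 was called lower and 0 higher. It was GCHFR, the feedback regulator that binds GCH1, which fell from 22.9 ± 3.20 to 17.0 ± 0.536 CPM (SD, n = 3 each) with a log2 fold change of -0.43 (adjusted p = 0.00492 in the edgeR test). PTS and SPR, which carry out the next steps of synthesis, both had a log2 fold change of -0.04. The median of the list was -0.04.

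DHODH had 15.8, 14.4 and 11.9 CPM in control replicates 1, 2 and 3, and 8.80, 12.1 and 8.86 CPM in hyperoside replicates 1, 2 and 3. Hyperoside replicate 2 lay just above control replicate 3, so the groups overlapped. The log2 fold change was -0.50 (SE 0.15, adjusted p = 0.0110 in the edgeR test). The call rested on few libraries, as it was lost without hyperoside replicate 1 (-0.42, adjusted p = 0.0598 in edgeR) and without hyperoside replicate 3 (-0.42, adjusted p = 0.0666 in edgeR). It was also lost when FPKM values were tested in limma, with adjusted p-values of 0.0579 and 0.0602. DHODH maps to chromosome 16 at 72008588 to 72027664 (plus strand). Of 6 other pyrimidine synthesis genes, 1 was called lower and 2 higher, with a median log2 fold change of 0.10. TYMS, the thymidylate synthase, rose from 203 ± 20.7 to 287 ± 22.5 CPM (SD, n = 3 each), and CTPS2, a CTP synthase, had a log2 fold change of 0.37. CAD, the enzyme that makes the substrate of DHODH, had -0.23 (adjusted p = 0.0335 in the edgeR test). The call of CAD was lost with library totals as the only scaling, with the replicate number as a block, in both tests of FPKM values, and without hyperoside replicate 1 or 3.

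AIFM2 was the one gene of the 8 whose mean normalized CPM was above that of the controls. It had 23.6, 19.7 and 23.9 CPM in control replicates 1, 2 and 3, and 22.6, 25.3 and 24.3 CPM in hyperoside replicates 1, 2 and 3, and the groups overlapped. The log2 fold change was 0.10 (SE 0.11, adjusted p = 0.455 in the edgeR test), with a 95% interval of the ratio from 0.921 to 1.25. AIFM2, whose antioxidant response element core is marked above, maps to chromosome 10 at 70098223 to 70132934 (minus strand). Its exons overlap those of MACROH2A2 on the opposite strand, which had at most 1 count per library. Relative to GPX4 in the same library, AIFM2 counts had a log2 ratio of -3.15 ± 0.12 in controls and -2.87 ± 0.17 with hyperoside (SD, n = 3 each). The same exact permutation test of the difference, 0.28, gave p = 0.10, the smallest that this design allows, and 0.200 after Benjamini-Hochberg adjustment over 2 pairs. All 3 hyperoside ratios lay above all 3 control ratios.

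AIFM2 depends on ubiquinone and vitamin K as substrates. Of 16 listed genes of ubiquinone synthesis and of ubiquinone and vitamin K reduction, all tested, 2 were called lower and 3 higher, with a median log2 fold change of 0.05. COQ8A, a kinase-like protein needed for ubiquinone synthesis, fell from 76.3 ± 4.73 to 43.2 ± 0.292 CPM (SD, n = 3 each) with a log2 fold change of -0.82 (adjusted p = 3.24e-07 in the edgeR test). COQ3, a methyltransferase of the same route, had -0.50. COQ7, a hydroxylase, and COQ5, another methyltransferase, were called higher with 0.67 and 0.38, and NQO1, a quinone reductase and classical NRF2 target, was the third gene called higher, with 0.35 (adjusted p = 0.00277 in the edgeR test). Without control replicate 1, 8 genes of the list were called rather than 5.

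Some relatives of the 10 genes were higher with hyperoside. Of 8 listed (other GPX genes, SOD3, CCS, AIFM1 and AIFM3), 5 were tested, 2 were called higher and 1, CCS, lower. SOD3, the secreted dismutase, had 3.61, 2.56 and 1.57 CPM in controls and 7.49, 6.37 and 6.84 CPM with hyperoside. Every hyperoside library was above every control library, with a log2 fold change of 1.42 (SE 0.24, adjusted p = 1.20e-04 in the edgeR test). GPX5, a peroxidase known from the epididymis, rose from 39, 22 and 27 counts to 93, 75 and 72 counts, a log2 fold change of 1.40 (adjusted p = 0.00294 in the edgeR test). Both genes remained rare, at 4.96 ± 0.429 and 1.40 ± 0.202 FPKM with hyperoside (SD, n = 3 each). GPX2, with 19, 5 and 6 counts in controls and 18, 25 and 35 with hyperoside, was not called (adjusted p = 0.0808 in the edgeR test).

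GPX4 and GPX1 are selenoproteins, which need a dedicated route to insert selenocysteine during translation. Of 12 listed genes of this route 11 were tested, 7 were called lower and 1 higher, with a median log2 fold change of -0.25. LRP8, a receptor for the selenium carrier SELENOP, fell from 43.2 ± 3.68 to 23.2 ± 5.14 CPM (SD, n = 3 each) with a log2 fold change of -0.90 (adjusted p = 1.61e-05 in the edgeR test). SARS1, which charges the selenocysteine tRNA as well as serine tRNAs with serine, had -0.78, and SECISBP2L, a relative of the protein that reads the selenocysteine insertion element, was the one called higher, with 0.52. Another 18 selenoprotein genes were present, of which 16 were tested, 10 were called lower and 1 higher, with a median of -0.35. SELENOK and SELENOW had log2 fold changes of -0.91 and -0.90, and SELENON, called higher, had 0.42. GPX4 itself, at -0.17, was not called, and its difference from the other selenoprotein genes was not tested.

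Glutathione is the substrate of GPX4. Of 13 genes of its supply and recycling, all tested, 8 were called lower and 1 higher, with a median log2 fold change of -0.37. CHAC1, which degrades glutathione, fell from 28.7 ± 2.82 to 2.69 ± 0.166 CPM (SD, n = 3 each), and SLC7A11, the cystine importer, had 76.9, 83.8 and 125 CPM in controls and 25.8, 28.2 and 22.9 CPM with hyperoside. Their log2 fold changes were -3.41 (adjusted p = 3.21e-12 in the edgeR test) and -1.90 (adjusted p = 1.19e-08 in edgeR). SLC3A2, the partner chain of SLC7A11 and of other transporters, was called higher with 0.30, a call that was lost without control replicate 2. The members of this list that fell thus include a gene of glutathione breakdown as well as genes of its supply.

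GPX7 and GPX8 work beside the oxidases and disulfide isomerases of the endoplasmic reticulum. Of 12 listed genes of this relay, all tested, 9 were called lower and 1 higher, with a median log2 fold change of -0.48, the lowest median of the 9 pathway lists. ERO1B, an oxidase of the compartment, fell from 27.7 ± 4.19 to 11.1 ± 0.753 CPM (SD, n = 3 each) with a log2 fold change of -1.32 (adjusted p = 1.48e-07 in the edgeR test), and QSOX2, a sulfhydryl oxidase, had -1.02. ERO1A, the paralog of ERO1B, was higher, at 158 ± 13.7 CPM against 97.6 ± 8.10 CPM (SD, n = 3 each) with a log2 fold change of 0.70 (adjusted p = 2.81e-06 in the edgeR test). The lists were chosen with earlier results of these libraries known, and their counts are a description beside the 23.2% of genes called lower and 22.1% called higher over all tested genes.

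**Figure D4:**
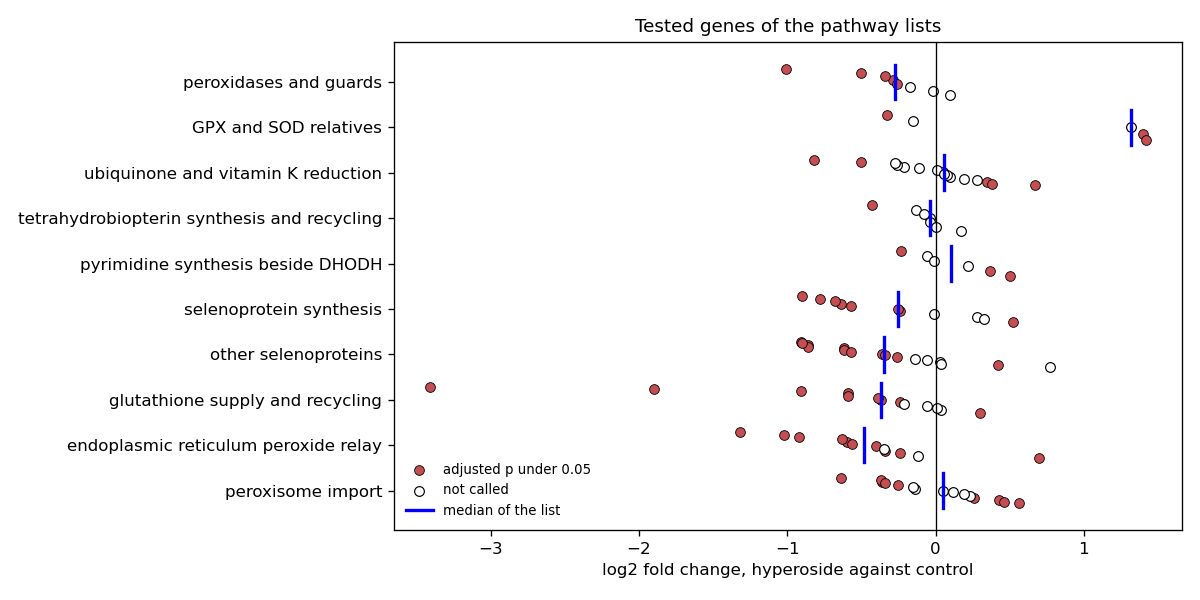
Log2 fold change in hyperoside against control libraries (x axis) of every tested gene of the 10 peroxidase and guard genes and of the 9 pathway lists (rows). Filled points passed an adjusted p of 0.05, open points did not, and blue bars mark the median of a list. It was lowest for the endoplasmic reticulum peroxide relay at -0.48 and highest for the GPX and SOD relatives at 1.32. Of these relatives 5 were tested, and their median is the value of GPX2, which was not called.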

How the data were processed

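K562 RNA was sequenced in 6 libraries. The authors deposited raw counts per gene and FPKM values, in which the counts were scaled to gene length and library total. The submitters' processing notes name fastp, HISAT2, HTSeq and hg38, and their versions and settings were not given in the sources used here. Groups and replicate numbers were taken from the labels.

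Differences in counts were tested by the quasi-likelihood method of edgeR 4.0.16 (R 4.3.3) on treatment alone, after filterByExpr with a minimum count of 10 and TMM scaling, and p-values were adjusted by Benjamini-Hochberg over 15095 genes. Standard errors are the absolute log2 fold change divided by the square root of F. Alternatives were run in edgeR, limma 3.58.1 and DESeq2 1.42.0. Exact permutation tests went through every assignment of the libraries with numpy 2.4.6, and scipy 1.17.1 adjusted their p-values. Pairs with 0 counts (GPX1 to GPX4 and GPX8 to GPX7) gave no ratio. Positions came from GENCODE 29 and promoter sequences from RefSeq.

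Members and lists were chosen with earlier results of these data known. Named genes were every member, up to 2 called genes per direction and list with the largest change, and the 3 genes most like GPX4 and GCH1. NQO1, PTS, SPR and GPX2 were named after their values were seen, as were ACAT2, WTAP and MACROH2A2. One gene that the rule names is not reported here. The alternatives changed the normalization, the test, the filter, the unit, the replicate block and the libraries used.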

Additional observations from a re-analysis of the deposited data

How the results depend on the processing

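Across 15 alternatives each of the 5 genes called lower kept its direction, and GCH1, CAT and SOD1 kept an adjusted p under 0.05. With limma-trend on log2(FPKM + 1) and on log2(FPKM + 0.1), 3 of the 8 genes were called, since SOD2 and DHODH lost their calls. The cause was not tested. Between 4 and 5 genes were called when 1 library was left out, but not always the same ones. Without hyperoside replicate 3 they included GPX4 (adjusted p = 0.0464 in edgeR) and not DHODH (adjusted p = 0.0666 in edgeR). The log2 fold change of GPX8, never called, turned to 0.03 with library totals only, 0.01 with limma-voom, 0.03 and 0.06 with FPKM plus 1 and plus 0.1, and 0.01 with the replicate block, and it ran from -0.22 to 0.27 when libraries were left out. The number of ubiquinone and vitamin K genes called was 5 to 8, and the SOD2 to SOD1 difference -0.08 to 0.11, when libraries were left out. From raw counts the GPX4 share was 96.9% without and 95.7% with hyperoside. Same-numbered libraries did not deviate together (correlations of -0.08, -0.03 and -0.03). These correlations cannot show whether libraries of the same number were prepared together. With the replicate block 6129 genes were called rather than 6841, and 5 of the 8 genes still. The balance of directions over all tested genes depended on the scaling. With TMM 3508 were called lower and 3333 higher, against 2958 and 3726 with library totals only. With limma-trend on log2(FPKM + 1) there were 2783 and 3563. With library totals only, 5 of the 8 genes were still called lower. The few counts of GPX1 and GPX7 allow only the statement that no difference was detectable.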
